A study of Mus musculus with 16 samples.

Results

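FGF9 at 1 ng/mL, the lower of 2 doses of fibroblast growth factor 9 given to cultured mouse germ cells, was compared with no FGF across the transcriptome. The cells were THY-1+ germ cells of C57 LacZ mice between passages 9 and 12, grown on STO cells, a mouse fibroblast line used as feeder. They were kept before treatment in serum-free medium with GDNF at 20 ng/mL, GFRA1 at 150 ng/mL and FGF2 at 1 ng/mL. For a week they then received FGF9 at 1 ng/mL, FGF9 at 20 ng/mL, FGF2 at 1 ng/mL or, as control, no FGF, and GDNF and GFRA1 stayed in the medium of all 4 groups. The control is thus a culture without FGF but with GDNF signalling, taken from cells that had received FGF2 before. Germ cells were blown off the feeder before mRNA was sequenced. The sample labels list 4 cultures in each group, 16 in all, whereas the title of the gene table points to 12 libraries. Neither the labels nor the title says how these 12 divide among the groups, and 3 in each group were assumed. The paper reports this same number of replicates for its sequencing. The comparison covers the 17755 of 54432 genes in the table whose mean normalized count over all libraries was at least 10. At that limit, Olfr646 lay just inside with a mean of 10.01 and a log2 fold change of 0.62 ± 0.77 (SE), and Gm10718 just outside with a mean of 9.996 and a log2 fold change of -0.75 ± 1.48 (SE).

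FGF9 is a secreted ligand that binds FGF receptors and heparan sulphate at the cell surface, and its receptors signal through adaptors to the ERK, PI3K and p38 MAPK kinases. In the testis FGF9 acts in sex determination and on germ cells. Spermatogonial stem cells, the minority of THY-1+ germ cells in culture that can found a colony in a recipient testis, depend on GDNF acting through GFRA1 and RET. The question put here is what the low dose of FGF9 adds to cells that already receive GDNF.

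The gene table holds, for each gene, the mean over all libraries and the log2 fold change of each treatment over no FGF with its standard error (SE), and no value per library. The level of a gene in a group is therefore given as a derived mean, the normalized count per library that the mean and the 3 fold changes imply for groups of equal size. The spread between libraries beyond the noise of counting reads is given as a coefficient of variation (CV). It comes from the dispersion that the SEs of the 3 comparisons imply for 3 libraries a group. The CV is thus 1 value per gene for all 4 groups, and at low counts the full spread is larger. In bulk RNA, fewer cells of a type and less RNA per cell cannot be told apart. The cells carried their defining germ cell transcripts. Dazl, an RNA-binding protein of germ cells, had derived means of 49281 with FGF9 1 ng/mL and 48295 with no FGF, and the helicase Ddx4 had 11869 with FGF9 1 ng/mL and 11445 with no FGF. Zbtb16, which encodes the spermatogonial factor PLZF, had 9512 with FGF9 1 ng/mL and 9411 with no FGF. With equal library numbers assumed, the SEs of genes with means from 10 to 300 imply unequal depths. The FGF9 1 ng/mL libraries then had 0.626 to 0.693 times the depth of the FGF9 20 ng/mL libraries. Against the FGF2 libraries they had 0.671 to 0.731 times the depth. Unequal library numbers would alter these ratios, and also the part of the SE that comes from the spread between libraries. This was not tested. The depth of the no FGF libraries cannot be separated this way.

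FGF9 at 1 ng/mL changed few transcripts. Of the 17755 genes, 14 (0.0789%) had a Wald p under 0.05 after Benjamini-Hochberg adjustment over all genes tested and are called changed, 5 of them (0.0282%) higher and 9 (0.0507%) lower with FGF9. Under an unadjusted p of 0.05 there were 765 genes (4.31%), 347 higher (1.95%) and 418 lower (2.35%). The share of 4.31% is below the one that this threshold itself would give if no gene changed. The median log2 fold change was -0.0037, with quartiles of -0.10 and 0.089. Counts were normalized between libraries, which by itself brings the median near no change, so the median is no result of the treatment. Of the 14 called genes, 13 were annotated as protein coding and 1 as a pseudogene, and none of 2104 lncRNAs was called. The change was at least 1.5-fold in 10 of the 14 and at least 2-fold in 7. Replacing the normal distribution of the Wald statistic by a t distribution with 8 degrees of freedom left 0 genes called. Without the minimum mean there were 34 calls (10 higher, 24 lower), with the deposited adjusted p-values 35 (10 higher, 25 lower), and with the Wald statistics scaled to their own median and spread 76 (25 higher, 51 lower).

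**Figure D1:**
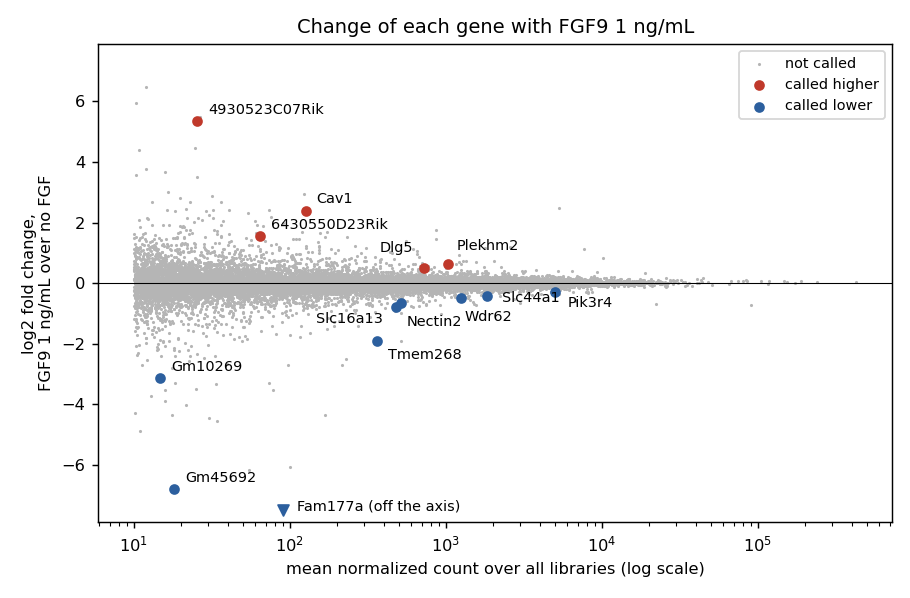
Log2 fold change of FGF9 1 ng/mL over no FGF (vertical axis) against the mean normalized count over all libraries (horizontal axis, log scale), with a point for each of 17755 genes and the 14 called genes in colour. Most points lie on the zero line at high means and spread out at low means; Fam177a, drawn as a triangle at the edge, and Gm10222, which was not called, lie below the axis.

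Among the genes called higher, Cav1 encodes caveolin-1, the coat protein of caveolae, flask-shaped invaginations of the plasma membrane. It lies on chromosome 6 from 17306335 to 17341452 on the plus strand (GRCm38, as for all positions here). The derived mean of Cav1 was 85.0 with FGF9 1 ng/mL and 16.1 with no FGF, a CV of 35.6% between libraries. Cav1 was thus 5.27-fold higher with FGF9 (95% interval 2.73 to 10.1, adjusted p = 0.00200, as for all adjusted p-values here a Wald p with Benjamini-Hochberg adjustment over all genes tested). 4930523C07Rik, a RIKEN cDNA locus annotated as protein coding on chromosome 1 from 160044382 to 160080208, had a derived mean of 90.6 with FGF9 and 2.20 with no FGF. That made it 41.2-fold higher (13.2 to 128, adjusted p = 1.35e-06), with a CV of 37.0%. Its derived means were 7.42 with FGF9 20 ng/mL and 1.77 with FGF2. Only the FGF9 1 ng/mL group thus brought 4930523C07Rik, with a mean of 25.5 over all libraries, past the minimum of 10. 6430550D23Rik, on chromosome 2 from 155973279 to 156007977 on the minus strand, had 109 with FGF9 and 37.2 with no FGF, or 2.94-fold (1.76 to 4.90, adjusted p = 0.0457). It lies opposite Cep250, which had an unadjusted p of 0.391.

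The other 2 genes called higher were expressed at moderate levels and changed less. Plekhm2, whose product links lysosomes to the motor kinesin, had a derived mean of 1276 with FGF9 1 ng/mL and 831 with no FGF, 1.54-fold higher (1.26 to 1.87, adjusted p = 0.0308). Dlg5, a membrane-associated guanylate kinase that acts as a scaffold at cell junctions, had 943 with FGF9 and 667 with no FGF, 1.41-fold higher (1.21 to 1.65, adjusted p = 0.0308). Their CVs were 11.6% and 8.97%.

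Of the genes called lower, Pik3r4 had the highest expression and the smallest change. It encodes VPS15, the regulatory subunit of the class III phosphatidylinositol 3-kinase that serves autophagy and endosomes, and lies on chromosome 9 from 105642978 to 105687657. The derived mean of Pik3r4 was 4464 with FGF9 1 ng/mL and 5494 with no FGF, 1.23-fold lower (1.15 to 1.32, adjusted p = 2.12e-05). Its CV between libraries was 4.03%, the lowest of the 14. Wdr62, a scaffold protein of the centrosome and spindle pole, had 1041 with FGF9 and 1460 with no FGF, 1.40-fold lower (1.23 to 1.61, adjusted p = 0.00204). Slc44a1, a choline transporter-like protein, had 1579 with FGF9 and 2138 with no FGF, 1.35-fold lower (1.19 to 1.54, adjusted p = 0.00668).

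Slc16a13, a member of the monocarboxylate transporter family on chromosome 11 from 70216789 to 70221064, had a derived mean of 313 with FGF9 1 ng/mL and 545 with no FGF. It was 1.74-fold lower (1.43 to 2.11, adjusted p = 7.28e-05). Its neighbour and relative Slc16a11 had 415 with FGF9 and 506 with no FGF and was not called (adjusted p = 0.630). Nectin2, an immunoglobulin-like adhesion molecule, had 372 with FGF9 and 582 with no FGF, 1.56-fold lower (1.27 to 1.92, adjusted p = 0.0308). Tmem268, a transmembrane protein, had 155 with FGF9 and 579 with no FGF, 3.74-fold lower (2.29 to 6.10, adjusted p = 0.000455), with a CV of 30.1%.

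**Figure D2:**
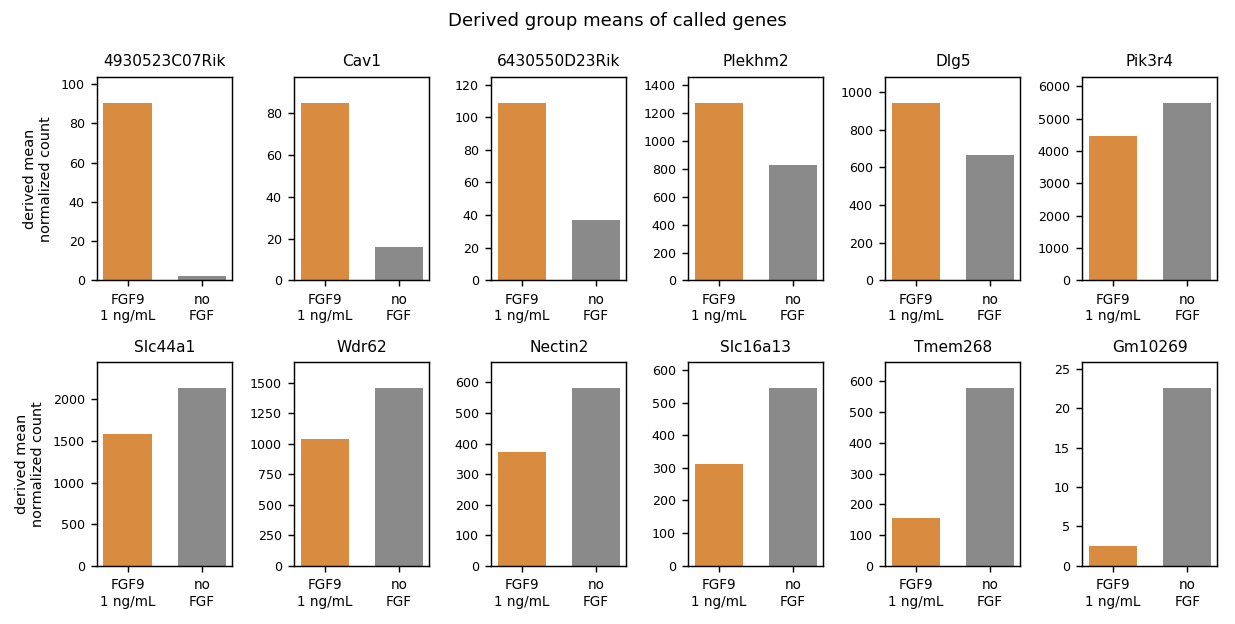
Derived mean normalized count of 12 of the 14 called genes with FGF9 1 ng/mL (left bar) and no FGF (right bar), each gene on its own axis from 0. Bars carry no error because the table has no value per library; 4930523C07Rik stands at 90.6 with FGF9 and 2.20 with no FGF, Pik3r4 at 4464 with FGF9 and 5494 with no FGF, and Fam177a and Gm45692, at or near 0 with FGF9, are left out.

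To show what lies at the start sites of called genes, promoter windows of 300 bases (250 before to 50 after the start) were taken from RefSeq (GRCm38.p6). Windows were found for 10 of the 14 called genes, 15 windows in all. They were searched on both strands for the ETS core CCGGAAGT, the site type bound by ETV5 and other ETS factors that act below FGF and GDNF signalling, the cAMP response element TGACGTCA, the AP-1 site TGANTCA, the CArG box of serum response factor and the TATA box TATAAA. None of these motifs overlapped another in the windows shown. An ETS core stood in windows of Nectin2, called lower, and 6430550D23Rik, called higher, against 3.89% of all 32851 windows. A cAMP response element stood in that of Nectin2 (1.79% of all windows), and a TATA box in windows of Cav1 and 6430550D23Rik (13.6%). No window held an AP-1 site (7.81%) or a CArG box (1.63%). The windows with an ETS core and the upstream window of Cav1, the gene that is followed across doses and lists in the results, are printed 5′ to 3′ with these motifs in capitals.
Nectin2, chr7:19749524-19749823, minus strand: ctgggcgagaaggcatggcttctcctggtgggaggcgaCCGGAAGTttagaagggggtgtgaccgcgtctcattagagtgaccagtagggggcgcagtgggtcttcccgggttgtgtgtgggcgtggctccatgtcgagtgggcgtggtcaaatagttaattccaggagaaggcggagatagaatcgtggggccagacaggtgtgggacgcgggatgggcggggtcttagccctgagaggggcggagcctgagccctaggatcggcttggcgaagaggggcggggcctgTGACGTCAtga
6430550D23Rik, chr2:156007928-156008227, minus strand: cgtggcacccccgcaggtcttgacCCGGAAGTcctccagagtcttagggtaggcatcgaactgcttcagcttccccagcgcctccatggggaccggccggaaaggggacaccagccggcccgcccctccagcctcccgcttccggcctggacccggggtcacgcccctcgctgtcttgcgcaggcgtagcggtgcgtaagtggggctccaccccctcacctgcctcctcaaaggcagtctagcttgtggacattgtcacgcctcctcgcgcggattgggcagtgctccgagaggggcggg
Cav1, chr6:17306085-17306384, plus strand: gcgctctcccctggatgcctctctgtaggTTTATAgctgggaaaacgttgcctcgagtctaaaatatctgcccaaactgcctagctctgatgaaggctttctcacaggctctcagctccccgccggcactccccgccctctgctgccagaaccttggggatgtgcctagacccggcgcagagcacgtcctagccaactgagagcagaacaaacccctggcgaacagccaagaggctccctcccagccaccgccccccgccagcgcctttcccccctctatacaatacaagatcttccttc
In the window of Cav1 the TATA box lies on the opposite strand and is seen as its reverse complement.

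Among the called genes, Fam177a, Gm45692 and Gm10269 share most of their transcript sequence with other genes, so that reads could be assigned to either. The share of 31-base words of a gene's GENCODE M21 transcripts that also occur in other genes was used as the measure. Fam177a, on chromosome 12 from 55124469 to 55142104, had the smallest p of all genes, with a derived mean at 0 with FGF9 1 ng/mL and of 134 with no FGF (adjusted p = 1.42e-09) and an implied CV of 245%. Fam177a shared 98.5% of its words with 1700047I17Rik2, a copy of it on the same chromosome that RefSeq names Fam177a2. The copy 1700047I17Rik2 had 645 with FGF9 and 510 with no FGF, and was not called (adjusted p = 1.00). The derived means of Fam177a and 1700047I17Rik2 added to 645 with FGF9 and 644 with no FGF, a ratio of 1.00. They added to 637 with FGF9 20 ng/mL and 516 with FGF2. The sums carry no interval, and the ratio of 1700047I17Rik2 alone had one of 0.768 to 2.08. Whether reads moved between the copies was not tested.

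Gm45692, a predicted gene on chromosome 8 from 26119534 to 26160819 that overlaps Rnf170 and Thap1 on the same strand, had a derived mean of 0.228 with FGF9 1 ng/mL and 25.6 with no FGF (adjusted p = 0.0314) and a CV of 92.0%. Gm45692 shared 92.0% of its words with Rnf170, a ubiquitin ligase gene, which had 1843 with FGF9 and 1691 with no FGF. Gm10269, a pseudogene on chromosome 18 from 20682594 to 20682963, had 2.54 with FGF9 and 22.6 with no FGF, 8.90-fold lower (3.25 to 24.3, adjusted p = 0.0308). It shared 69.4% of its words with Rpl35, a ribosomal protein gene at 3630 with FGF9 and 3752 with no FGF. No fold change is given for Fam177a and Gm45692. The other 11 called genes shared between 0% and 20.1% of their words with other genes, the highest being 6430550D23Rik, mostly with Cep250, and 5 shared none.

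The 10 genes next in order of p had adjusted p-values from 0.0675 to 0.134 and were not called. They included Celsr3, a cadherin of planar cell polarity, with derived means of 79.0 with FGF9 1 ng/mL and 29.2 with no FGF, and Plekha7, a protein of adherens junctions, with 851 with FGF9 and 556 with no FGF. Msrb3, a methionine sulphoxide reductase, had 273 with FGF9 and 163 with no FGF. S100a4, a calcium-binding protein abundant in fibroblasts, had 119 with FGF9 and 36.6 with no FGF, and 49.2% of its 31-base words occur also in the predicted gene Gm42674. The potassium channel Kcnc2 had 1425 with FGF9 and 1123 with no FGF. The other 5 had lower means with FGF9. Vps39, a subunit of the HOPS complex that tethers endosomes to lysosomes, had 2205 with FGF9 and 2693 with no FGF. Rgs19, a regulator of G-protein signalling, had 238 with FGF9 and 391 with no FGF, and Rpn2, a subunit of the oligosaccharyltransferase, had 7043 with FGF9 and 8622 with no FGF. Hdac5, a histone deacetylase, had 1070 with FGF9 and 1380 with no FGF, and the predicted gene Gm10134 had 85.1 with FGF9 and 151 with no FGF.

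The largest fold changes were also listed among genes that were not called and had a mean of at least 50, predicted genes and pseudogenes left aside. A large change with a small SE would have been called, so wide intervals follow from this choice. S100a4, described above, is also of this set, with a CV of 34.8%. Hapln4, an extracellular matrix link protein, had derived means of 19 with FGF9 1 ng/mL and 187 with no FGF, with a CV of 75.8% and an adjusted p of 0.186. Notch4, a receptor of the Notch family, had 29.0 with FGF9 and 190 with no FGF, with a CV of 110%. The calcium channel subunit Cacnb4 had 229 with FGF9 and 863 with no FGF. In the other direction, Dnm3os, a non-coding RNA that hosts microRNAs, had 70.1 with FGF9 and 15.4 with no FGF (CV 69.2%), Pakap had 84.9 with FGF9 and 23.0 with no FGF, and the phosphodiesterase Pde2a had 160 with FGF9, 3.21-fold its mean with no FGF. None of these intervals was narrow: that of Dnm3os ran from 1.44 to 14.4-fold and that of Notch4 from 0.0258 to 0.902-fold.

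The 13 self-renewal genes and 8 differentiation genes that the study displays were next examined. The study selected these known genes for display on the same samples, so they are not taken as independent evidence of a direction. None of the 21 was called, and none had an unadjusted p under 0.05, beside 0.0789% and 4.31% of all genes. The median log2 fold change was 0.00 for the self-renewal genes and -0.01 for the differentiation genes, beside -0.0037 for all genes. Gfra1, the GDNF co-receptor, had derived means of 11006 with FGF9 1 ng/mL and 10879 with no FGF, a ratio of 1.01 (95% interval 0.929 to 1.10). Ret, its signalling partner, had 16457 with FGF9 and 16739 with no FGF, a ratio of 0.983 (0.905 to 1.07). Etv5, an ETS factor that GDNF induces, had 11975 with FGF9 and 12555 with no FGF, a ratio of 0.954 (0.866 to 1.05).

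The other self-renewal genes were bounded less tightly. Bcl6b, a transcriptional repressor needed for stem cell maintenance, had a ratio of 1.07 (0.869 to 1.31), Id4, an inhibitor of basic helix-loop-helix factors, 1.05 (0.899 to 1.22), Nanos2, an RNA-binding regulator of stem cells, 1.07 (0.866 to 1.31) and Lhx1, a homeobox factor, 1.13 (0.948 to 1.34). For 11 of the 13 the whole 95% interval lay within 1.5-fold of no change in either direction, the exceptions being Thy1 (0.440 to 3.50) and Pou5f1 (0.629 to 1.32). Among the differentiation genes, Kit, the receptor that marks differentiating spermatogonia, had 661 with FGF9 and 772 with no FGF, a ratio of 0.856 (0.691 to 1.06). Stra8, which retinoic acid induces before meiosis, had 63.5 with FGF9 and 44.9 with no FGF, a ratio of 1.41 (0.954 to 2.09), and 6 of the 8 intervals lay within 1.5-fold.

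**Figure D3:**
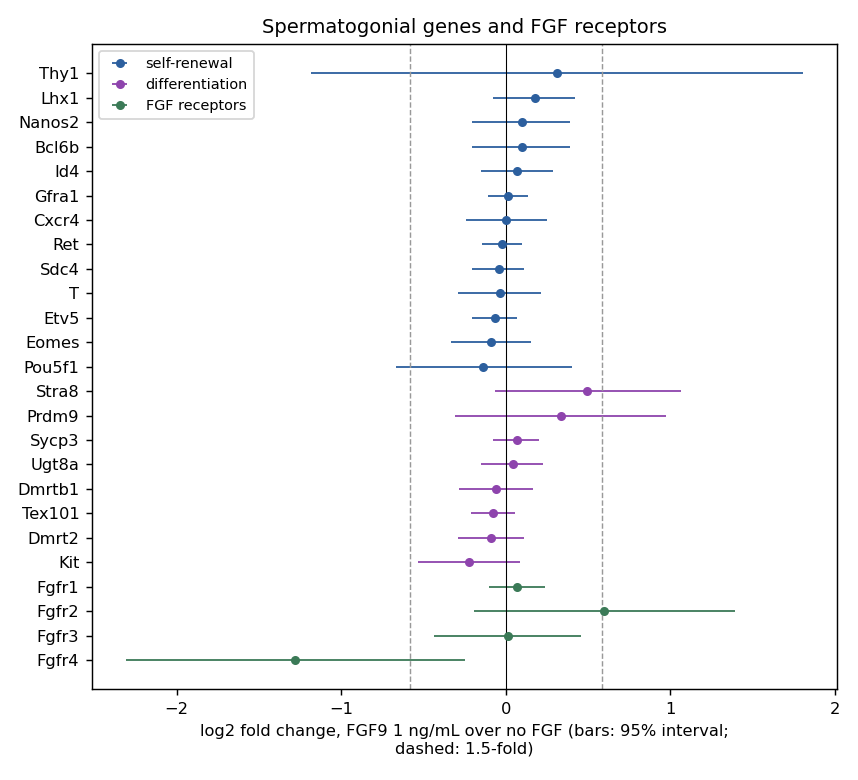
Log2 fold change of FGF9 1 ng/mL over no FGF, with 95% intervals, for the 13 self-renewal genes, the 8 differentiation genes and the 4 FGF receptors, with dashed lines at 1.5-fold in either direction. All intervals but that of Fgfr4 cross 0, and those of Gfra1, Ret and Etv5 are among the narrowest.

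None of 33 genes of undifferentiated spermatogonia, 20 of progenitor and differentiating spermatogonia, 19 of germ cell identity or 25 of meiosis was called. Of all genes, 0.0789% were called. The medians of these lists were 0.00, -0.07, -0.01 and 0.02 on the log2 scale, in the same order. At an unadjusted p under 0.05 there was only Sycp1, a protein of the synaptonemal complex, with 5615 with FGF9 1 ng/mL and 5233 with no FGF (adjusted p = 1.00). Csf1, a cytokine that acts on spermatogonial stem cells, had 135 with FGF9 and 92.1 with no FGF, with an interval of 0.807 to 2.67-fold, and Dmrt1, a regulator of the switch to meiosis, had 7745 with FGF9 and 7861 with no FGF (0.930 to 1.04-fold).

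The receptors that could read FGF9 were present in both groups. Fgfr1 had a derived mean of 2645 with FGF9 1 ng/mL and 2521 with no FGF, Fgfr3 a fold of 1.01 (0.740 to 1.37), and Fgfr2 167 with FGF9 and 110 with no FGF (1.51-fold, 0.875 to 2.62). Fgfr4 had 21.1 with FGF9 and 51.1 with no FGF, an unadjusted p of 0.0152 and an adjusted p of 0.864. The transcript of Fgf9 itself stood at 932 with FGF9 and 906 with no FGF, and that of Fgf2 at 98 with FGF9 and 59.8 with no FGF, with a CV of 47.0%.

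None of 28 feedback and target genes of FGF and ERK signalling was called, beside 0.0789% of all genes. None had an unadjusted p under 0.05, beside 4.31% of all genes, and their median log2 fold change was 0.00. Dusp6, a phosphatase of ERK, had derived means of 7073 with FGF9 1 ng/mL and 6721 with no FGF, a ratio of 1.05 (0.960 to 1.15). Spry4, an inhibitor of receptor signalling, had 3959 with FGF9 and 3902 with no FGF, a ratio of 1.01 (0.927 to 1.11). Etv4, an ETS factor, had 2692 with FGF9 and 2743 with no FGF, a ratio of 0.981 (0.858 to 1.12). The intervals of 23 of the 28 lay within 1.5-fold.

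None of 48 genes of p38 MAPK signalling was called, beside 0.0789% of all genes, and their median was -0.02. Mapk14, which encodes p38α, had 5679 with FGF9 1 ng/mL and 5240 with no FGF, a ratio of 1.08 (0.929 to 1.26). Only Traf6, a ubiquitin ligase upstream of these kinases, had an unadjusted p under 0.05, with 294 with FGF9 and 383 with no FGF (adjusted p = 1.00). None of 39 genes of TGF-beta, activin and BMP signalling was called either. The smallest p among them was that of Ltbp1, which holds latent TGF-beta in the matrix, with 308 with FGF9 and 542 with no FGF (adjusted p = 0.425). None of 42 interferon-stimulated genes was called, with a median of 0.02, and only Ifi203 had an unadjusted p under 0.05 (45.6 with FGF9, 16.0 with no FGF).

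Feeder and fibroblast markers had the highest median of the 33 lists examined. Among the 33 markers tested, none was called, but 27 had a positive log2 fold change and 6 a negative one, against 48.8% positive over all genes, and their median was 0.40. Uneven splits in the other direction were seen among genes of glycolysis and hypoxia (4 positive and 26 negative, median -0.04), of cholesterol and fatty acid synthesis (7 positive and 27 negative, median -0.06) and ribosomal proteins (18 positive and 60 negative, median -0.03). Among the fibroblast and feeder markers, higher means with an unadjusted p under 0.05 were found for 6, S100a4 included, beside 1.95% of all genes. Col1a1, a chain of type I collagen, had 2589 with FGF9 1 ng/mL and 1966 with no FGF. Anxa1, a membrane-binding annexin, had 87.6 with FGF9 and 30.8 with no FGF, and the matrix proteoglycan Bgn had 478 with FGF9 and 238 with no FGF. Mmp2, a gelatinase, was the only marker lower at that p, with 177 with FGF9 and 277 with no FGF. The summed derived mean of the 38 listed markers was 28666 with FGF9 1 ng/mL and 26861 with no FGF, and none of them was at 0. With FGF9 20 ng/mL the sum was 35383 and with FGF2 27946. Cav1 is strongly expressed in fibroblasts, and the part of these markers in the values of Cav1 and S100a4 was not tested.

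Of 11 caveolar genes tested, Cav1 was called and the other 10 were not. Positive log2 fold changes were found for 8 of the 11, and the median was 0.12. Cavin2, a coat component of caveolae, had derived means of 10.6 with no FGF, 19.3 with FGF9 1 ng/mL and 104 with FGF9 20 ng/mL. Its ratio of FGF9 1 ng/mL to no FGF was 1.83 (0.705 to 4.73), and at 20 ng/mL it was called against no FGF (9.82-fold, 3.99 to 24.2, adjusted p = 0.000116). Cavin4, a relative of it known from muscle, had 25.8 with FGF9 1 ng/mL and 18.4 with no FGF, a ratio of 1.41 (0.728 to 2.72). Cav2, which assembles with caveolin-1, had derived means of 23.6 with FGF9 1 ng/mL and 22.0 with no FGF, a ratio of 1.07 (0.473 to 2.43). Cavin1, a coat component, had 5882 with FGF9 and 6019 with no FGF, a ratio of 0.977 (0.911 to 1.05). Ehd2, an ATPase at the caveolar neck, had 252 with FGF9 and 428 with no FGF (unadjusted p = 0.00257, adjusted p = 0.421).

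Of 40 genes of PI3K, AKT, mTOR and autophagy, Pik3r4 alone was called. Pdpk1, the kinase that activates AKT, had 3797 with FGF9 1 ng/mL and 2874 with no FGF (adjusted p = 0.566), and Tsc2, an inhibitor of mTOR, had 5391 with FGF9 and 6183 with no FGF (adjusted p = 0.833). Of 40 genes of cell polarity and adhesion, Dlg5 was called higher and Nectin2 lower, with a median of -0.01. Celsr1, a planar polarity cadherin, had 144 with FGF9 and 351 with no FGF, and Crb2, a polarity determinant of the apical membrane, had 124 with FGF9 and 194 with no FGF, with adjusted p-values of 0.325 and 0.746.

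No other list held a called gene. In all, 30 of 33 lists held none, and 28 lists had a median between -0.07 and 0.06 on the log2 scale. With 0.0789% of all genes called, a list without a call says little about its genes as a group. The intervals of all 44 genes of DNA replication, all 48 of the respiratory chain, 35 of 36 of G2 and mitosis and 76 of 78 ribosomal proteins lay within 1.5-fold of no change. Mki67, a marker of cycling cells, had 16424 with FGF9 1 ng/mL and 14941 with no FGF (1.10-fold, 0.989 to 1.22). Among genes of apoptosis, Bcl2l11, which encodes BIM, had 457 with FGF9 and 603 with no FGF, and the caspase Casp9 had 1364 with FGF9 and 1775 with no FGF. Bax had 2364 with FGF9 and 2705 with no FGF, and Pmaip1, which encodes NOXA, had 3692 with FGF9 and 3314 with no FGF. The adjusted p-values of these 4 ran between 0.213 and 0.720. Among imprinted genes, Igf2r, the receptor that clears IGF2, had 4502 with FGF9 and 6847 with no FGF (adjusted p = 0.216), and Igf2 had 5111 with FGF9 and 5882 with no FGF. P4ha2, a collagen prolyl hydroxylase listed with hypoxia genes, had 186 with FGF9 and 344 with no FGF (adjusted p = 0.188). Slc7a5, an amino acid transporter that ATF4 induces, had 7546 with FGF9 and 8639 with no FGF, and Ppp1r15a, which encodes the phosphatase subunit GADD34, had 1542 with FGF9 and 1815 with no FGF. The 5 genes with the highest means, mitochondrial mt-Co1, mt-Atp6, mt-Cytb, mt-Co2 and mt-Co3, had folds between 1.01 and 1.05.

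Markers of other testicular cells were low. Of the markers of Sertoli cells, Leydig cells, peritubular myoid cells, macrophages and endothelium, 8 of 15, 2 of 10, 5 of 9, 5 of 12 and 8 of 11 reached a mean of 10, and none was called. The Sertoli marker Cst9, the Leydig marker Hsd3b1 and the macrophage markers C1qa, C1qb and C1qc were at 0. The summed derived means were 1564 with FGF9 1 ng/mL and 1608 with no FGF for Sertoli markers, and 152 with FGF9 and 155 with no FGF for Leydig markers. They were 1408 with FGF9 and 1311 with no FGF for myoid markers, 1619 with FGF9 and 1630 with no FGF for macrophage markers, and 1269 with FGF9 and 1326 with no FGF for endothelial markers. Esam, an endothelial adhesion molecule, had 3.10 with FGF9 and 35.0 with no FGF (adjusted p = 0.134).

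**Figure D4:**
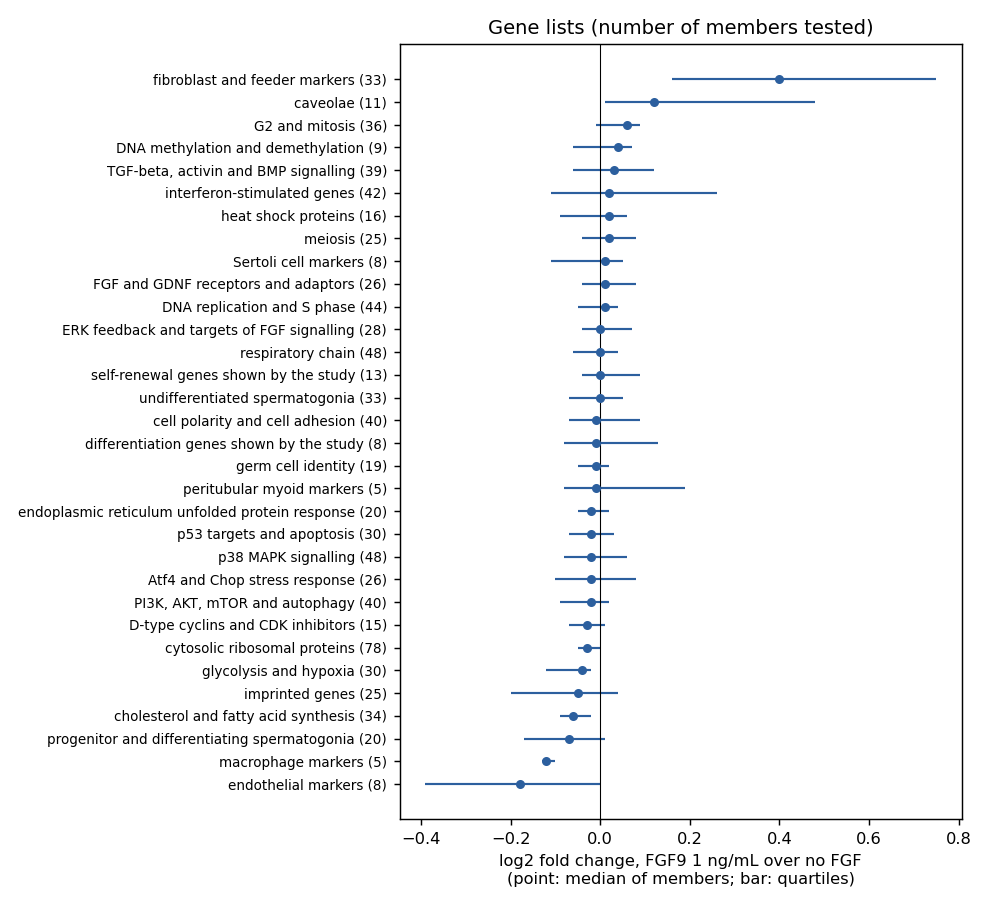
Median log2 fold change of FGF9 1 ng/mL over no FGF (points) and quartiles (bars) for the lists with at least 3 tested members, with the number of members tested in brackets. Fibroblast and feeder markers lie at a median of 0.40, the caveolar genes at 0.12 and the endothelial markers at -0.18. The medians of 28 lists lie between -0.07 and 0.06, and the Leydig markers, with 2 tested, are not shown.

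The called genes were then followed at the higher dose and with FGF2. All 3 comparisons use the same no FGF libraries, so their values are given side by side. With FGF9 20 ng/mL, 488 genes (2.75%) were called against no FGF, and with FGF2 1 ng/mL, 26 genes (0.146%). Cav1 had derived means of 16.1 with no FGF, 85.0 with FGF9 1 ng/mL and 365 with FGF9 20 ng/mL, and 41.0 with FGF2. Against no FGF it was called with FGF9 20 ng/mL (adjusted p = 3.37e-18) and not with FGF2 (adjusted p = 0.440). Pik3r4 had 5494 with no FGF, 4464 with FGF9 1 ng/mL and 4909 with FGF9 20 ng/mL (adjusted p of the higher dose 0.0444). Wdr62 had 1460 with no FGF, 1041 with FGF9 1 ng/mL and 1141 with FGF9 20 ng/mL (adjusted p of the higher dose 0.0147). Slc44a1 had 1579 with FGF9 1 ng/mL, 1594 with FGF2 and 2138 with no FGF (adjusted p of FGF2 0.00734). Fam177a, listed at 0 with FGF9 1 ng/mL, had 134 with no FGF, 144 with FGF9 20 ng/mL and 82.2 with FGF2. Gm45692 had 25.6 with no FGF, 0.228 with FGF9 1 ng/mL and 30.9 with FGF9 20 ng/mL, and 15.6 with FGF2.

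The difference of the 2 FGF9 doses was tested directly. Over all genes, 461 of 17734 (2.60%) passed the test, and 9 of the 12 called genes that could be tested, those at 1 or more normalized counts in both groups, were among them. Those 12 were selected on the FGF9 1 ng/mL libraries, which enter the test, so this count is no independent measure of their response. Cav1 was the one gene with a higher level at 20 ng/mL in the direction of its change at 1 ng/mL, by 4.29-fold (95% interval 2.39 to 7.71, adjusted p = 0.000214). The other genes that passed stood nearer to no FGF at 20 ng/mL. Slc16a13 had 545 with no FGF, 313 at 1 ng/mL and 490 at 20 ng/mL. Nectin2 had 582 with no FGF, 372 at 1 ng/mL and 573 at 20 ng/mL, and Dlg5 had 667 with no FGF, 943 at 1 ng/mL and 683 at 20 ng/mL. In each of these the level at 20 ng/mL lay between those at 1 ng/mL and with no FGF, as it did in the remaining 5. Slc44a1 had 2138 with no FGF, 1579 at 1 ng/mL and 2080 at 20 ng/mL. Tmem268 had 579 with no FGF, 155 at 1 ng/mL and 406 at 20 ng/mL. 4930523C07Rik had 2.20 with no FGF, 90.6 at 1 ng/mL and 7.42 at 20 ng/mL. Of the less abundant genes, 6430550D23Rik had 37.2 with no FGF, 109 at 1 ng/mL and 48.2 at 20 ng/mL, and Gm10269 had 22.6 with no FGF, 2.54 at 1 ng/mL and 14.1 at 20 ng/mL. For Pik3r4 (20 over 1 ng/mL 1.10-fold, 1.03 to 1.18), Wdr62 (1.10-fold, 0.958 to 1.25) and Plekhm2 (0.786-fold, 0.649 to 0.952), the difference between the doses did not pass the test, with adjusted p-values of 0.141, 0.693 and 0.218.

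FGF9 and FGF2 were compared at the matched dose of 1 ng/mL. Over all genes, 76 of 17733 (0.429%) differed, and 6 of the 12 called genes were among them, with the same limit on their choice. Dlg5 had 943 with FGF9 and 598 with FGF2, a ratio of 1.58 (1.35 to 1.84, adjusted p = 3.27e-05). Slc16a13 had 313 with FGF9 and 556 with FGF2, a ratio of 0.564 (0.465 to 0.683, adjusted p = 2.85e-05), and Pik3r4 had 4464 with FGF9 and 5222 with FGF2 (0.855, 0.798 to 0.915, adjusted p = 0.00532). Wdr62, 4930523C07Rik and Gm10269 also passed, with adjusted p-values of 0.0273, 1.23e-09 and 0.0153. For Slc44a1 the ratio of FGF9 to FGF2 was 0.991 (0.872 to 1.13), and for Cav1 it was 2.07 (1.13 to 3.82, adjusted p = 0.494).

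**Figure D5:**
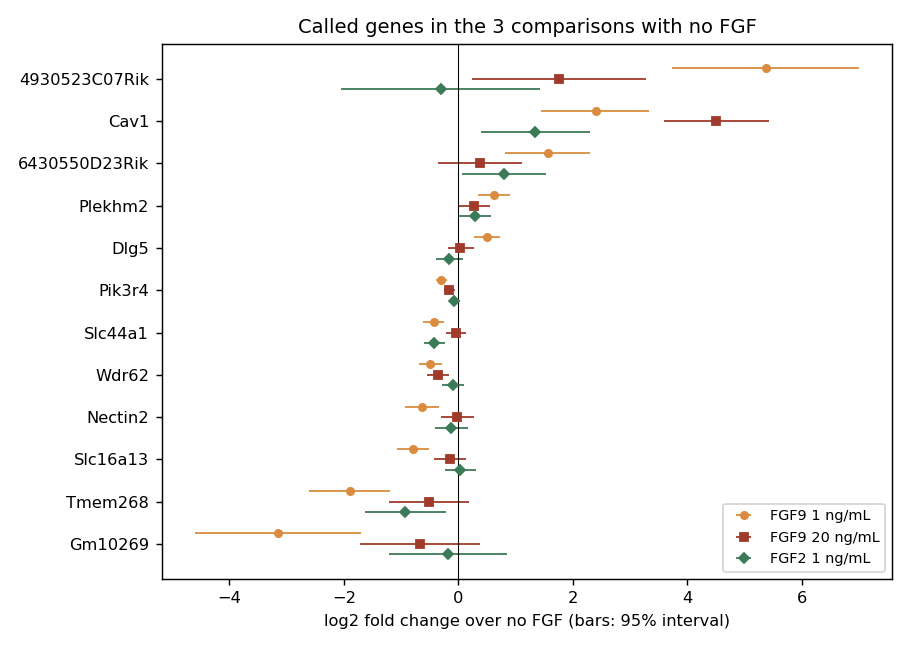
Log2 fold change over no FGF, with 95% intervals, of 12 called genes with FGF9 1 ng/mL (circles), FGF9 20 ng/mL (squares) and FGF2 1 ng/mL (diamonds), all against the same no FGF libraries. Cav1 lies farthest from 0 with FGF9 20 ng/mL, and the other 11 genes lie farthest from 0, or for Slc44a1 about as far as with FGF2, with FGF9 1 ng/mL, the libraries on which they were chosen.

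The precision of the comparison depended on the level of a gene. In the 5572 genes with means from 10 to 100 the median CV between libraries was 35.0%, and a gene of median SE would have needed a 4.06-fold change to be called. In the 5995 genes from 100 to 1000 that fold was 1.59, in the 5839 genes from 1000 to 10000 it was 1.27, and in the 349 genes above 10000 it was 1.2. The 95% interval lay within 1.2-fold of no change for 4945 genes (27.9%), within 1.5-fold for 10685 (60.2%) and within 2-fold for 13558 (76.4%). Within 1.5-fold were 3.91% of the genes with means from 10 to 100, against 97.4% of those from 1000 to 10000. Changes of 1.5-fold were thus mostly not detectable with the depth, number and spread of these libraries in genes under a mean of 100.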

How the data were processed

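Cultured THY-1+ germ cells from 4 treatments were profiled by stranded mRNA sequencing. The submitters' processing notes name STAR, Salmon and the build GRCm38, and the authors compared treatments with DESeq2. Versions, the design formula and filtering are not given in the sources used. Each gene of the deposited table has a mean normalized count across the libraries (a signal). For every treatment against no FGF, the authors computed a log2 fold change, a standard error, a score (the Wald statistic), a two-sided p-value and an adjusted p-value. These columns are the authors' own comparisons and the table has no value per library, so the comparison rests on them, with the p-values adjusted anew. The labels give 4 cultures a group and the title points to 12 libraries, so 3 a group were assumed wherever a number was needed, and which culture was left out is not known here. Nothing says whether cultures were independent, and the p-values measure the spread between these libraries.

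The deposited two-sided p-values received Benjamini-Hochberg adjustment across the 17755 genes whose mean reached 10, and genes under 0.05 are called. Group means were derived from the mean and the 3 fold changes. Intervals are 95% normal intervals. Direct contrasts between treatments divided the difference of fold changes by a standard error built from the derived means, with a floor of 0.5, and the dispersion that the deposited standard errors imply, where both derived means reached 1. Relative depth was fitted to differences of squared standard errors, in which the dispersion cancels for equal library numbers. The weights averaged to 3.00 libraries a group in genes with means from 10 to 100 and to 3.66 from 100 to 300. The total per library is not known here, and intervals rest on the deposited standard errors. Scripts were tested on simulated data. Positions and shared words came from GENCODE M21, in which 17750 of the 17755 IDs were found, and 16 symbols stood on more than 1 tested line.

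The named genes are every called gene, the next 10 by p, the 5 highest and 5 lowest fold changes among other genes whose mean reached 50, the study's 21 genes with Csf1, Dmrt1, Fgf9, Fgf2 and the FGF receptors, up to 4 members of each of 33 lists by p, and the 5 genes of highest mean. Of these, 1 gene named by this rule is not reported here. Predicted genes, RIKEN clones and pseudogenes are left out unless called or among the next 10. Outside this rule, Zbtb16, Dazl, Cep250, Rpl35, Rnf170, 1700047I17Rik2, Slc16a11, Cav2, Cavin1, Spry4, Etv4, Mapk14 and Mmp2 were chosen after their values were seen. The members and lists were chosen with earlier results of these data known. Alternatives were other filters, thresholds, null distributions and centring, and for the direct contrasts 4 libraries a group and unequal depth. Python 3.11.15, numpy 2.4.6, pandas 2.3.3, scipy 1.17.1 and matplotlib 3.10.9 were used.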

Additional observations from a re-analysis of the deposited data

Results flagged for a closer look

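For 9 of the called genes, the effects of the 2 FGF9 doses differed by the direct Wald test of the doses, with Benjamini-Hochberg adjusted p-values from 3.20e-08 to 0.0446. The log2 difference, 20 minus 1 ng/mL, was 2.10 for Cav1, the only one of the 9 whose change was larger at 20 ng/mL. It was 0.64 for Slc16a13, 1.39 for Tmem268, 0.40 for Slc44a1, 0.62 for Nectin2 and 2.48 for Gm10269, which were lower than no FGF at 1 ng/mL. It was -3.61 for 4930523C07Rik, -0.46 for Dlg5 and -1.18 for 6430550D23Rik, which were higher than no FGF at 1 ng/mL. These genes were selected for their change at 1 ng/mL on libraries that enter the test. By the standard errors, with equal library numbers assumed, the FGF9 1 ng/mL libraries had 0.692 times the depth of the FGF9 20 ng/mL libraries. With these depths in place of equal ones, 458 genes in place of 461 differed between the doses over all genes.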

How the results depend on the processing

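No paired analysis was possible because the table has no value per library, and leaving out single replicates was not possible for the same reason. The 14 calls (5 higher, 9 lower) were all kept without a filter on low values, with 34 calls (10 higher, 24 lower), with the deposited adjusted p-values, with 35 (10 and 25), and after scaling the Wald statistics by their median and spread, with 76 (25 and 51). The statistics had a scaled median absolute deviation of 0.857. The 20 calls added without a filter all had means under 10 and log2 fold changes beyond 10 in size. A t distribution with 8 degrees of freedom left 0 calls at an adjusted p under 0.05, where the deposited Wald test of DESeq2 gave the 14. Of 81 pairs of a called gene and an alternative, 67 stayed past the threshold, and the other 14 were all under the t distribution, with adjusted p-values of 1.00. An unadjusted p under 0.05 with a change of at least 1.5-fold gave 305 genes (143 and 162), 10 of them among the 14. A minimum mean of 50 gave 11, a threshold of 0.1 gave 21, a change of at least 1.5-fold gave 10, and setting the median change to 0 gave 14. With 4 libraries a group the dose difference had 460 genes and the FGF9 and FGF2 difference 77, in place of 461 and 76. With the depth of each group taken from the standard errors, an alternative chosen after seeing the data, they had 458 and 69.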
